A study of Rattus norvegicus with 311 samples.

Results

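The genes described here are 100 probes whose RNA in untreated vehicle wells of cultured rat liver cells was highest on day 3 after plating and lower on both day 1 and day 7. They were chosen from 22253 probes by their values in the 24 vehicle libraries, 8 on each day. Counts were divided by each library's total to give counts per 1000000 (CPM), log2(CPM + 1) was averaged over the libraries of a day, and the 5777 probes with a day 3 mean of 10 CPM or more were ranked by the smaller of the differences day 3 minus day 1 and day 3 minus day 7. The 100 highest were kept, so their peak on day 3 of the vehicle wells is how they were found and not a result. Of the 5777 probes, 995 had their highest mean on day 3. By symbol, 80 of the 100 members matched a rat gene of the RefSeq annotation of GRCr8, of which 79 are protein coding, and 20 matched none.

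The cells were primary hepatocytes of male Sprague Dawley rats, plated on collagen-coated 96-well plates alone (monoculture, 156 libraries) or together with non-parenchymal cells (co-culture, 155 libraries), the other cells of the liver such as endothelial cells, stellate cells and macrophages. On days 1, 3 and 7 wells were collected after 24 hours with vehicle or with 1 of 4 compounds at 3 doses. Phenobarbital (0.1, 1 and 10 mM) activates the constitutive androstane receptor, GW7647 (0.01, 0.1 and 1 µM) and gemfibrozil (10, 100 and 1000 µM) activate the receptor PPARα, and ketoconazole (1, 10 and 30 µM) is an antifungal that inhibits cytochrome P450 enzymes. RNA was measured by TempO-Seq, in which pairs of detector oligonucleotides are ligated on their target and counted, so each value stands for 1 short stretch of a transcript. The labels give 4 biological replicates and do not say if they were separate animals, so p-values measure only the spread between these wells, which may be technical.

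Hepatocytes taken out of the liver attach to collagen, flatten and rebuild their actin cytoskeleton within days, while many of their specialised functions decline. Plated liver cells release chemokines, small secreted proteins that attract leukocytes, and growth factors that act on stellate cells, which in turn become contractile and deposit matrix. Actin, tropomyosin and neurofilament genes belong to families whose members are made in different tissues, skeletal muscle and neurons among them.

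The 311 libraries held 412414 to 12272575 counts, and those of day 3 held 3122054 to 9999736. Albumin, the main plasma protein made by hepatocytes, had a median of 5393 CPM on day 1, 3414 on day 3 and 2346 on day 7 of the vehicle wells. In the same wells the summed level of 22 stellate and mesenchymal markers had a median of 1263 CPM on day 1, 1849 on day 3 and 9494 on day 7, and that of 21 macrophage markers had a median of 234, 342 and 1453 CPM. The summed level of 18 endothelial markers, which include the member Esam, had a median of 57.8, 153 and 107 CPM. Esam alone had medians of 17.1, 119 and 21.1 CPM. Of the 18, Emcn and Plvap were at 0 in the vehicle wells of day 3, and 13 of 20 lymphocyte, neutrophil and erythroid markers were at 0. The number of probes at 1 CPM or more also differed by day, from 9808 to 10659 on day 1, from 8211 to 10400 on day 3 and from 11082 to 12502 on day 7. Fewer cells of a type and less RNA per cell cannot be told apart in these values.

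Upstream stretches of 3 members in which searched motifs lie are shown, chosen after the motifs were seen: Acta1, skeletal muscle α-actin, Tpm1, a tropomyosin that stabilises actin filaments, and Ccl7, a monocyte chemokine. Each is the 250 bases before the RefSeq start of the gene in GRCr8, written 5′ to 3′ on the gene's strand, with capitals where a searched motif lies on either strand. The intervals are chr19:68784195-68784444 (minus strand) for Acta1, chr8:76543416-76543665 (minus strand) for Tpm1 and chr10:67513845-67514094 (plus strand) for Ccl7.
Acta1: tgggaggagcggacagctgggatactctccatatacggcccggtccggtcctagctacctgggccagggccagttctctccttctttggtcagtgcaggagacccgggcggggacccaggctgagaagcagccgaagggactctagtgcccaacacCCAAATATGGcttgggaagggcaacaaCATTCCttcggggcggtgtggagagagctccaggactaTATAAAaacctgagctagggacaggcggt
Tpm1: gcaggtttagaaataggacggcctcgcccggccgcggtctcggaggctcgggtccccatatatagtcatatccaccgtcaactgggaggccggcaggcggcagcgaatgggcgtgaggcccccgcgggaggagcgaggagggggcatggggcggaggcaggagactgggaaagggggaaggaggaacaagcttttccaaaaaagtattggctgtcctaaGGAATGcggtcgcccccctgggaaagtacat
Ccl7: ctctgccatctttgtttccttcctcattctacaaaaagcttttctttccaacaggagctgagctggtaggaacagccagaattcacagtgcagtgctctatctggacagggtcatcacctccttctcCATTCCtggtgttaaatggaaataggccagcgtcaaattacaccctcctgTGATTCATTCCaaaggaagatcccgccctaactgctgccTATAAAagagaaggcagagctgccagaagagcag

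The Acta1 stretch holds a CArG box, the sequence bound by serum response factor, from base -94 to -85 counted back from the start, a CATTCC (the sequence bound by TEAD factors) from -67 to -62 and a TATAAA from -29 to -24. The Tpm1 stretch holds CATTCC on the other strand from -31 to -26. The Ccl7 stretch holds CATTCC from -123 to -118 and from -68 to -63, and a TATAAA from -34 to -29. The second CATTCC overlaps a TGANTCA from -73 to -67, a looser form of the sequence bound by AP-1, here TGATTCA. Of 33469 stretches of the same length before rat genes, 1.5% hold a CArG box, 12.1% CATTCC, 6.34% TGANTCA and 12.9% TATAAA on either strand. These matches describe the letters and show no binding. The stretches of the same length before Msn, Pdgfb, Npw and Prnd hold none of the 4. That before Nppb, not shown, holds TATAAA from -208 to -203 and CATTCC from -131 to -126, both on the other strand. Stretches were at hand for 56 of the 100 members, too few to give a share for the group.

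As a group the 100 members took up 9.0% to 13.2% of all counts in the 8 vehicle libraries of day 3 (median 11.6%), against 2.83% to 6.93% on day 1 (median 3.9%) and 2.39% to 7.51% on day 7 (median 3.51%). Their median ratio was 2.23 between day 3 and day 1 and 2.21 between day 3 and day 7. Their day 3 means ran from 10.2 to 26531 CPM with a median of 106 CPM, where the 5777 ranked probes had a median of 42.6 CPM, and 16 members were at 1000 CPM or more. The smaller difference was that to day 7 for 52 members and that to day 1 for 48. The last members inside the list, among them Hdhd2, Dynll1, Trappc6a and Hist1h2ah, ended at a log2 difference of 0.753, and the next probes outside, among them Ptms1, Wbp11, Slc30a4 and Ube2e3, began at 0.746. In each culture taken alone, all 100 members had their highest mean on day 3. These are the libraries that chose them, so nothing is read from this. Taken by plate and culture, 40 members were highest on day 3 in all 8 sets, and 4 members in 4 or fewer. Pdgfb was among these 4, and Ccl7 and Cxcl3 were highest in 5 sets.

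Esam, an adhesion molecule of endothelial junctions and platelets, headed the ranking. Its lowest, median and highest CPM were 2.2, 17.1 and 39.3 on day 1, 69.7, 119 and 191 on day 3, and 7.31, 21.1 and 43.9 on day 7. Every vehicle library of day 3 was above every one of the other days. The same held for Acta1, at 47.9, 116 and 159.6 CPM on day 1, 323, 474 and 833 on day 3, and 16.2, 59.0 and 267 on day 7. It also held for S100a11, a calcium-binding protein and the most abundant member, at 6945, 8591 and 13263 CPM on day 1, 23709, 26467 and 29504 on day 3, and 5453, 6867 and 23126 on day 7. With 1 probe that matched no gene, 4 members were fully apart in this way, as were 7 of the 5777 ranked probes (0.121%), and since the rule used these libraries nothing is read from the count.

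Other members of the cytoskeleton overlapped between days. Tpm1 was at 1915, 4554 and 8748 CPM on day 1, 6039.7, 14542 and 33608 on day 3 and 3695, 7600.3 and 14426 on day 7. Nefh, the neurofilament heavy chain of axons, was at 1.07, 5.27 and 32.2 CPM on day 1, 22.1, 46.4 and 106 on day 3 and 5.31, 17.6 and 25.2 on day 7. For both, the higher wells of the other days reached the lower wells of day 3.

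The chemokine Ccl2, which draws monocytes, had 2.68, 26 and 124 CPM on day 1, 36.0, 263 and 450.0 on day 3 and 28.4, 53.7 and 164 on day 7. Its neighbour on chromosome 10, Ccl7, had 1.12, 3.56 and 27.8 CPM on day 1, 10.5, 63.9 and 140.1 on day 3 and 9.68, 14.7 and 43.0 on day 7. In both genes the lowest wells of day 3 lay within the range of the other days. Npw and Npb encode the neuropeptides W and B, which share receptors. Npw was at 3.09, 6.29 and 11.6 CPM on day 1, 45.4, 50.3 and 82.9 on day 3 and 10.1, 27.5 and 50.3 on day 7, and its day 3 wells were all above those of day 1 and touched those of day 7.

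Members of high rank also lay at very different levels. Fam25a went from 319.6, 2421 and 4708 CPM on day 1 through 1125, 10240.3 and 17944 on day 3 to 23.5, 47.9 and 159.7 on day 7. Cox6a2, the muscle form of a subunit of cytochrome c oxidase, was at 0, 1.56 and 2.47 CPM on day 1, 2.72, 12.4 and 24.4 on day 3 and 0.886, 1.38 and 3.09 on day 7. The range of Fam25a on day 7 lay wholly below that of day 3, and for Cox6a2 the lowest well of day 3 lay just inside the range of day 7.

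**Figure D1:**
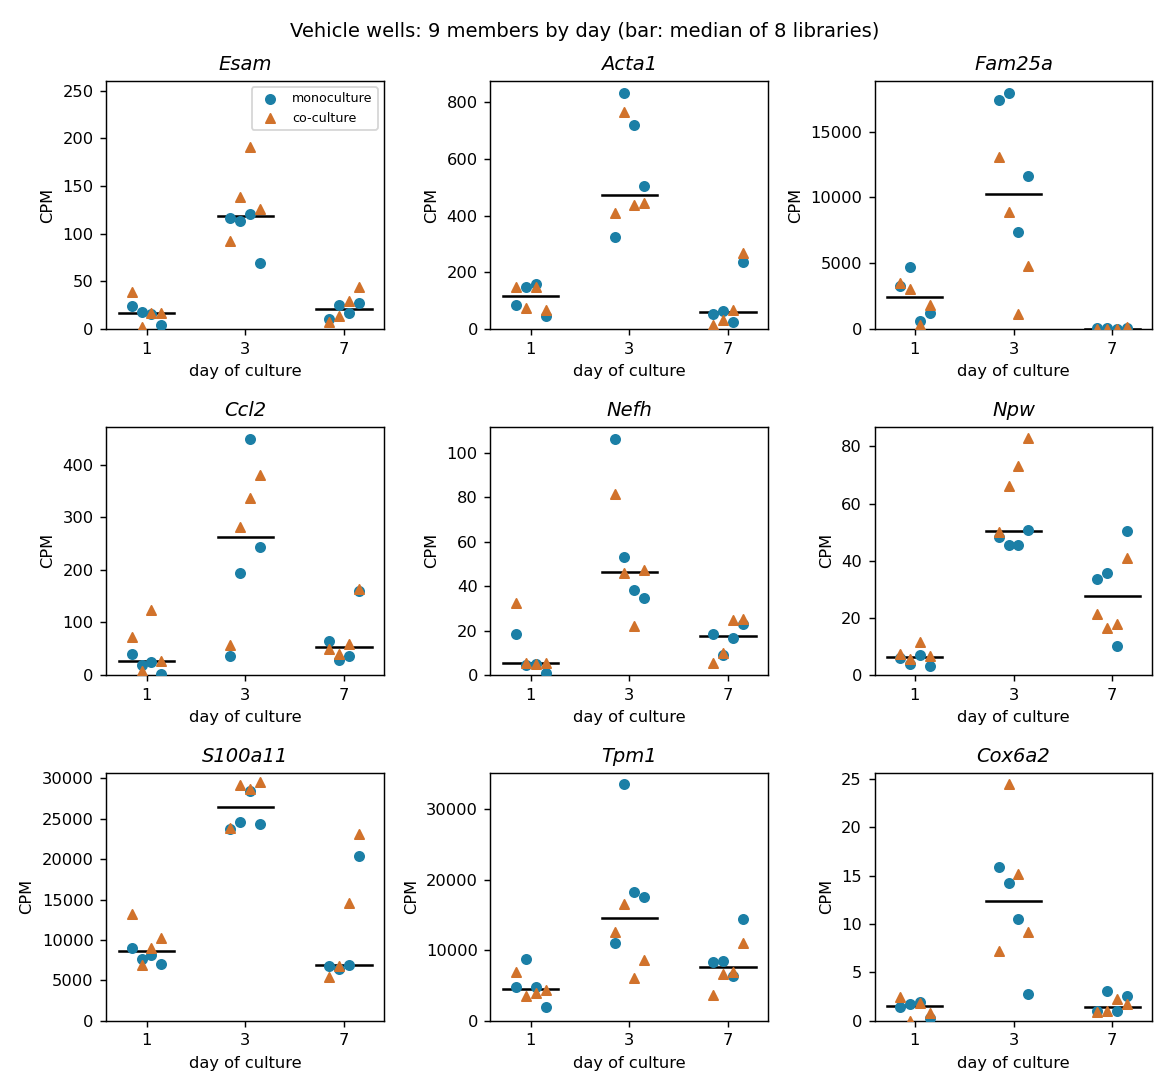
CPM on linear axes from 0 by day for 9 members in the vehicle wells that chose them, 8 libraries a day, with circles for monoculture, triangles for co-culture and a bar at the median. The day 3 points of Esam, Acta1 and S100a11 lie above all points of the other days, those of Fam25a lie above all of day 7, and those of Ccl2, Nefh and Tpm1 overlap with the other days.

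Whether the same genes peak on day 3 in wells the ranking did not use was asked in the wells with the lowest dose of each compound, 32 wells a day over both cultures. In these wells 76 of the 100 members were higher on day 3 than on day 1 and 0 were lower (adjusted p under 0.05, edgeR's quasi-likelihood test with Benjamini-Hochberg adjustment over 13566 probes), where 17.6% of all probes tested were higher and 14.6% lower. Against day 7, 75 members were higher and 0 lower, where 14.8% of all were higher and 22.5% lower. The median log2 difference was 0.91 against day 1 and 0.87 against day 7, and over all probes tested it was -0.00121 and -0.10. Past the threshold in both comparisons were 60 members and 3.52% of all probes.

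Among the cytoskeletal members, Acta1 had 65.5, 359 and 1295 CPM (lowest, median and highest) on day 3 against 12.7, 59.2 and 209 on day 1 and 12.1, 56.2 and 1130.0 on day 7. On day 3 it was higher by 2.72 ± 0.30 (log2, SE) than on day 1 and by 2.37 ± 0.29 than on day 7, with adjusted p 4.33e-12 and 2.24e-10, although single wells of day 7 reached the day 3 range. Tpm1 was higher by 1.46 ± 0.24 and 0.81 ± 0.24, and Nefh by 2.90 ± 0.37 and 1.08 ± 0.35. Tmsb10, a peptide that binds actin monomers, was higher than on day 1 by 1.68 ± 0.23, while its difference to day 7 of 0.48 ± 0.22 did not pass (adjusted p 0.080). Msn, moesin, which ties actin to the membrane, passed in neither comparison, at 0.68 ± 0.29 and 0.37 ± 0.29.

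Of the secreted members, Npw had 14.7, 41.9 and 64.5 CPM on day 3 and 1.18, 4.17 and 10.0 on day 1. All 32 wells of day 3 were above all 32 of day 1, a difference of 3.20 ± 0.18 (adjusted p 6.06e-25), and the difference to day 7 was 0.71 ± 0.17 with overlapping wells. Npb was higher by 3.33 ± 0.28 and 1.28 ± 0.26. Ccl2 had 20.4, 230.5 and 674 CPM on day 3, 4.96, 22.6 and 95.3 on day 1 and 7.33, 56.7 and 148 on day 7. It was higher by 2.94 ± 0.30 and 2.03 ± 0.29, with wells overlapping in both comparisons. Ccl7 was higher by 2.77 ± 0.38 and 1.87 ± 0.37, while Cxcl3, a neutrophil chemokine, passed against day 1 (1.00 ± 0.35) and not against day 7 (0.48 ± 0.35). Pdgfb, the B chain of platelet-derived growth factor, was higher by 1.24 ± 0.29 and 1.70 ± 0.29, and Spon2, a secreted matrix protein, by 2.51 ± 0.23 and 1.01 ± 0.21. Lamb3, the β chain of the basement membrane laminin of epithelia, was higher by 0.76 ± 0.22 and 2.07 ± 0.23. Nppb, the precursor of B-type natriuretic peptide, was higher by 1.23 ± 0.20 and 1.32 ± 0.20.

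At the cell surface, Esam was higher by 2.48 ± 0.27 than on day 1 and by 1.71 ± 0.26 than on day 7. Cd59, an inhibitor of the complement membrane attack complex, was higher by 1.56 ± 0.23 and 0.99 ± 0.23. Slco3a1, a transporter of organic anions, was higher by 2.05 ± 0.31 and 2.18 ± 0.31. Slc22a8, the organic anion transporter OAT3, had 82.8, 169 and 357 CPM on day 3 and 5.24, 15.2 and 39.6 on day 7. Every day 3 well was above every day 7 well, by 3.57 ± 0.21 (adjusted p 1.54e-24), and the difference to day 1 was 0.95 ± 0.19. Fam25a was also fully apart between these days, at 1086, 6406 and 25256 CPM on day 3 against 18.5, 68.8 and 281 on day 7, a difference of 6.71 ± 0.41 (adjusted p 1.26e-23). Cox6a2 had the largest difference to day 1 of all members, 4.70 ± 0.40, and differed from day 7 by 1.96 ± 0.34.

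S100a11 had 7347, 19305 and 31149.5 CPM on day 3, 4614, 6892 and 12206 on day 1 and 4853, 13092 and 24237 on day 7. It was higher by 1.49 ± 0.19 and 0.96 ± 0.19 with overlapping wells. Ptma, prothymosin α, was the only member with a negative difference, -0.14 ± 0.34 against day 7 (adjusted p 0.78). Against day 1 it was at 0.50 ± 0.34 (adjusted p 0.28).

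The lowest-dose wells also differed by day in how many probes they detected at 1 CPM, with medians of 10241, 10374 and 11389 on days 1, 3 and 7. With that number as a covariate, 86 members were higher on day 3 than on day 1 and 0 lower, where 20% of all probes were higher and 18.8% lower. Against day 7, 15 members were then higher and 38 lower, with a median of -0.32, where 24.4% of all probes were higher and 23.7% lower and their median was 0.13. Nefh, S100a11 and Cd59 were then at -0.78, -0.048 and -0.24 against day 7, and Acta1 was at 1.45 and still past the threshold. Number of detected probes and day move together between day 3 and day 7, and their parts in the difference to day 7 cannot be told apart.

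**Figure D2:**
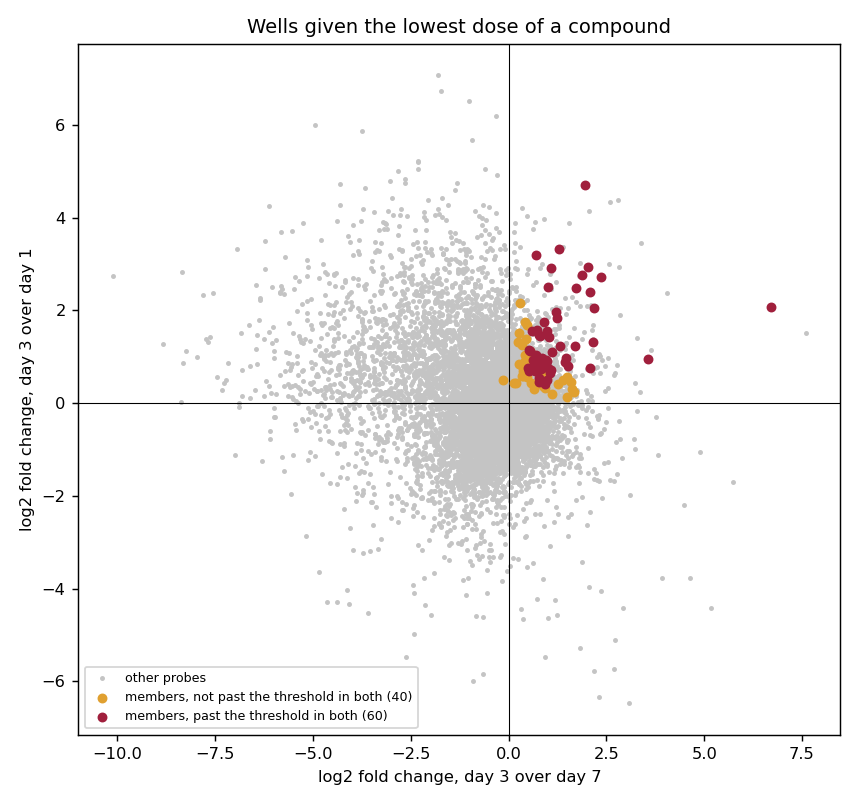
Log2 difference of day 3 over day 7 (horizontal) and of day 3 over day 1 (vertical) in the lowest-dose wells, 32 a day, for the 13566 probes tested. The 60 members past the threshold in both comparisons are red and the 40 others orange, and all lie above 0 on both axes except Ptma, at -0.14 on the horizontal one.

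Some close relatives of the members, given here after their values were seen, followed another course. Relatives that peaked with a member, such as Ccl7 beside Ccl2 or Npb beside Npw, are themselves in the list by the rule. That relatives left outside it differ is thus partly set in advance, and nothing is read from it. Acta2, smooth muscle α-actin and a marker of activated stellate cells, had vehicle medians of 0.800, 7.60 and 116 CPM on days 1, 3 and 7. In the lowest-dose wells Acta2 on day 3 was 3.48 ± 0.44 higher than on day 1 and 3.41 ± 0.41 lower than on day 7 (-3.41). Actg2, smooth muscle γ-actin, was likewise higher than on day 1 by 2.89 ± 0.76 and lower than on day 7 (-6.21 ± 0.54), where Acta1 was higher than both. Nefl and Nefm, the light and medium neurofilament chains, were higher than on day 1 by 4.11 ± 0.39 and 3.26 ± 0.44 and lower than on day 7 (-2.16 ± 0.35 and -1.09 ± 0.39), where Nefh was higher than both. Tpm2, another tropomyosin, was at 1.92 ± 0.34 and -2.78 ± 0.36, both past the threshold. Tpm4, also a tropomyosin, was at 0.39 ± 0.22 against day 1, which did not pass. Against day 7 it was at -0.80 ± 0.22, past the threshold.

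Cox6a1, the form of the Cox6a2 subunit found in most tissues, passed in neither comparison (-0.15 ± 0.19 and 0.28 ± 0.19). The endothelial genes Pecam1 and Cdh5 were lower on day 3 than on day 1 (-1.20 ± 0.42 and -2.17 ± 0.48), while Esam was higher. Both lay at low levels, with vehicle medians on days 1 and 3 of 3.12 and 3.61 CPM for Pecam1 and 9.10 and 1.76 for Cdh5. The median of Pecam1 thus did not fall in the vehicle wells. Leaving Tpm4 aside, the signs of these genes in the lowest-dose wells were the same under library totals, RLE scaling, the covariate for detected probes and the plate as a block. The exceptions were Nefh, which turned to -0.78, and Cox6a1, which turned to -0.69, both against day 7 with the covariate.

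Lists of related genes gave the following counts, to be read against the shares of all probes that were higher and lower than on day 1 (17.6% and 14.6%) and than on day 7 (14.8% and 22.5%). Of 24 actin and serum response factor genes tested, which include Acta1, Tpm1 and Msn, 11 were higher on day 3 than on day 1 and 2 lower, while against day 7, 7 were higher and 11 lower. Of 24 collagen and matrix genes, 15 were higher than on day 1 and 0 lower, and against day 7, 20 were lower and 1 higher, which was Lamb3. Of 18 chemokines and cytokines, 8 were higher and 3 lower than on day 1, and 4 were higher and 7 lower than on day 7, with Ccl2 and Ccl7 among those higher in both. Of 12 neuronal and muscle genes, 7 were higher than on day 1 and 0 lower, and 11 were lower than on day 7.

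Markers of other cell types moved as follows in the same wells. Of 16 endothelial genes tested, the 1 that was higher on day 3 than on day 1, and the 1 higher than on day 7, was Esam, and 4 and 5 were lower. Of 19 stellate and mesenchymal genes 14 were higher than on day 1 and 0 lower, and 18 were lower than on day 7. Of 19 macrophage genes 9 were higher and 1 lower than on day 1, and 2 were higher and 14 lower than on day 7. The part of these cells in the members' levels was not tested.

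**Figure D3:**
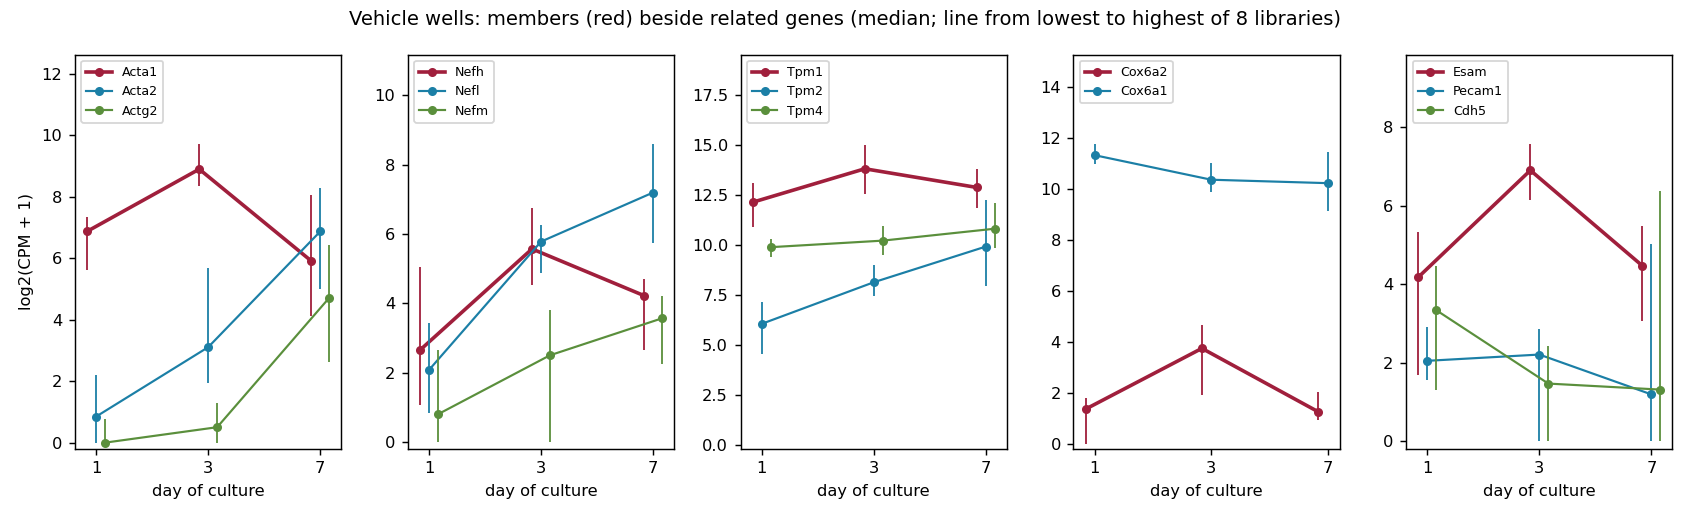
Median log2(CPM + 1) by day in the 8 vehicle wells of each day, with lines from the lowest to the highest well, for members and their relatives in 5 panels. Acta1 and Nefh peak on day 3, while Acta2, Actg2, Nefl and Tpm2 have their highest median on day 7.

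For 6 members the assay has another probe of the same name, and 4 of these other probes could be tested in the lowest-dose wells. None was higher on day 3 than on day 1, and 1, Gdpd1, was higher than on day 7 (0.58). The Egfr probe of the list, for the epidermal growth factor receptor, had vehicle medians of 6.04, 16.6 and 4.47 CPM on days 1, 3 and 7, and the other Egfr probe had 64.9, 47.9 and 98.7. In the lowest-dose wells the listed probe was higher by 0.98 ± 0.29 and 1.48 ± 0.29, and the other was at -0.06 ± 0.25 and 0.37 ± 0.25. The other Tpm1 probe was at 354, 338 and 507 CPM and at 0.35 and 0.25, where the listed one was at 1.46 and 0.81. The day 3 peak of Egfr and Tpm1 is thus a statement about 1 probe each, and probe sequences were not used here, so whether a probe also reads a near-identical gene, as histone or actin genes can be, is not known.

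The 80 matched members span a median of 15477 bases in the annotation, against 23347 for the ranked probes with a match. Of these 80, 24 (30.0%) span less than 5000 bases, where 11.4% of the ranked probes do. Over the 96 treated wells of day 3, with each group's mean removed, the correlation of 37 named members with their nearest member ran from 0.40 for Dennd3 to 0.97 for Tmsb10, with a median of 0.84, each being the highest of 99 values. The nearest to Ccl2 was Pdgfb (Pearson r 0.84), that to Cd59 was S100a11 (0.88), that to Esam was Rac1 (0.86), that to Dao was Hoga1 (0.86) that to Acta1 was Bex3 (0.77), that to Fam25a was Map7 (0.58) and that to Lamb3 was Spon2 (0.55). The wells share plates and depth with each other, and in the same wells 93 of 100 members had a negative correlation with the number of detected probes (median r -0.45), as did 32.0% of the ranked probes (median 0.24). Group means were not removed for this correlation with detected probes, so it also holds differences between compounds and doses.

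The compounds were compared on day 3, at the highest against the lowest dose of each, with both cultures averaged, since vehicle wells had chosen the members. Phenobarbital gave the largest number of calls. Of its 6 wells at each dose, 3 are monoculture wells whose chemical label is ketoconazole. They were taken as phenobarbital by their description. At 10 mM against 0.1 mM, with 6 wells each, 41 of the 100 members fell and 0 rose (edgeR, adjusted p under 0.05 over 13439 probes), where 7.98% of all probes fell and 7.19% rose. The members' median log2 difference was -1.30 and that of all probes 0.23, and 94 members were below 0. The members' share of all counts was 3.79% (median) at 10 mM and 10.8% at 0.1 mM. The median number of detected probes was 10131 at 10 mM and 9726 at 0.1 mM, and with it as a covariate 30 members fell and 3 rose (6.96% and 3.47% of all probes), with a members' median of -0.78.

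Several members of the cytoskeleton fell at 10 mM, and Acta1 did not pass. Tpm1 had 1054, 2042 and 3827 CPM (lowest, median and highest) at 10 mM against 5817, 14474 and 24022 at 0.1 mM, a difference of -3.11 ± 0.60 (adjusted p 0.00017). Msn was at 740.1, 2243 and 3282 CPM against 3838, 9749 and 18811, a difference of -2.86 ± 0.57. Aif1l, an actin-binding protein, was at 0.259, 2.2 and 5.97 CPM against 8.53, 16.5 and 36.6, a difference of -3.46 ± 0.54 with the smallest p of all members (adjusted p 3.72e-06). No well of one dose reached the range of the other in any of these 3 genes. Basp1, a membrane-bound protein of growing axons, was at -3.17 ± 0.64, Nefh at -3.55 ± 0.82 and Tmsb10 at -1.79 ± 0.43, all past the threshold.

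Acta1 had 83.5, 352 and 1375 CPM at 10 mM and 215, 345 and 598 at 0.1 mM, with overlapping wells and a difference of 0.38 ± 0.56 (adjusted p 0.70). Of 23 actin and serum response factor genes tested 14 fell and 0 rose.

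Most of the secreted members named here fell as well. Pdgfb had 0, 1.01 and 5.18 CPM at 10 mM against 5.89, 21.6 and 90.9 at 0.1 mM, a difference of -5.17 ± 0.99 (adjusted p 0.000133). Cxcl3 had 2.2, 2.77 and 9.78 CPM against 33.0, 110.1 and 201, a difference of -4.88 ± 0.99. Both were fully apart between the doses. Ccl2 had 4.40, 8.83 and 28.2 CPM against 20.4, 164 and 407, a difference of -4.19 ± 1.18 (adjusted p 0.0104) in which 5 of 6 wells at 10 mM lay below all at 0.1 mM. Ccl7, Npw and Npb also fell, with differences of -2.93 ± 1.03, -2.33 ± 0.53 and -2.36 ± 0.48. Of 18 chemokines and cytokines 7 fell and 2 rose. Lamb3 was at -0.77 ± 0.45 and did not pass.

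Some members at the cell surface fell, while Egfr, at -1.81 (adjusted p 0.086), did not pass. Tm4sf4, a 4-span membrane protein, had 110.1, 253 and 478 CPM at 10 mM against 1323, 1877 and 2294 at 0.1 mM, a difference of -3.24 ± 0.61 (adjusted p 0.000114) with the doses fully apart. Esam, Cd59, Fam25a and S100a11 had differences of -2.39 ± 0.63, -2.23 ± 0.52, -3.13 ± 0.74 and -2.0 ± 0.47. Prnd, the prion-like protein doppel, fell by 4.25 ± 0.96. Slc22a8 and Slco3a1 fell, with differences of -1.28 ± 0.42 and -2.77 ± 0.69, and Slc22a8 no longer passed with the covariate for detected probes (-1.06, adjusted p 0.079).

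Of the histone members, Hist1h4m, H3f3c, Hist1h2bcl1 and Hist1h2ah, named after their values were seen, all fell, with differences of -1.62, -1.93, -1.68 and -2.08. The other Hist1h2bcl1 probe was at -0.87 ± 0.56 and did not pass (adjusted p 0.29). Of 37 cell cycle genes 14 fell and 0 rose.

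Markers of other cells moved too at 10 mM phenobarbital, and their part in the result was not tested. Of 16 stellate and mesenchymal genes 8 fell and 0 rose, of 19 macrophage genes 6 fell, of 14 endothelial genes 4 fell with Esam, and of 34 hepatocyte genes 8 fell and 0 rose. Without plate 7 only 5 members passed, without plate 1 there were 20 and without plate 5 there were 26, all lower. The shares of all probes without a plate are not given here. In co-culture alone 15 members were lower and 0 higher (1.81% and 1.15% of all probes), and in monoculture, where the phenobarbital wells carry ketoconazole as their chemical label, 5 were lower and 0 higher (1.53% and 0.469%).

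At 1000 against 10 µM gemfibrozil, with 9 and 10 wells, 10 members fell and 0 rose, where 3.65% of all probes fell and 2.63% rose. The members' median was -0.51 and that of all probes -0.08. Lamb3 had 4.52, 11.9 and 41.0 CPM at 1000 µM and 17.9, 31.2 and 112 at 10 µM, a difference of -1.68 ± 0.38 (edgeR, adjusted p 0.00219). Pdgfb had 0, 3.89 and 49.4 CPM against 14.9, 52.0 and 113, a difference of -2.35 ± 0.68. In both genes most wells at 1000 µM lay below all at 10 µM and the others overlapped. For Pdgfb the overlapping wells were those of plate 7, at 24.9 CPM in monoculture and 49.4 in co-culture. Dennd3, a protein of membrane traffic, fell by 1.62 ± 0.39. Nefh, Tpm1 and Tm4sf4 also fell, with differences of -1.95 ± 0.62, -1.59 ± 0.46 and -1.49 ± 0.46. Cd59 and Slc22a8 had differences of -1.29 ± 0.41 and -1.07 ± 0.33, both past the threshold.

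Ccl2 varied widely between wells at 1000 µM, with 0, 9.40 and 753 CPM against 47.4, 274 and 674 at 10 µM. There 7 of 9 wells were below all at 10 µM and 1 was above all. The wells not below were those of plate 7, at 547 CPM in monoculture and 753 in co-culture. Nefh at 1000 µM was also highest on that plate, at 38.6 and 24.9 CPM. Why plate 7 differed was not tested. The Ccl2 difference of -1.05 ± 0.84 did not pass (edgeR, adjusted p 0.57). With the plate as a block 20 members were lower and 2 higher. Without plate 1 or plate 5 no member passed, without plates 3 and 9 there were 4 and 5, and without plate 7 there were 23. The shares of all probes with the block or without a plate are not given here. Nothing particular to the members is therefore read from these counts. Acta1 was at 0.76 ± 0.45 and did not pass. Of 34 hepatocyte genes 9 fell, and of 16 stellate and mesenchymal genes 3 fell.

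At 30 against 1 µM ketoconazole, with 8 wells each, 4 members fell and 1 rose, where 1.32% of all probes fell and 0.595% rose, and the members' median was -0.17. Npb had 1.86, 3.9 and 6.72 CPM at 30 µM and 7.22, 13.5 and 20.7 at 1 µM, a difference of -1.98 ± 0.41 (edgeR, adjusted p 0.00178). Dao, D-amino acid oxidase, a peroxisomal enzyme, had 2.74, 7.05 and 10.8 CPM against 16.5, 28.8 and 80.2, a difference of -2.50 ± 0.72 (adjusted p 0.0456). Both were fully apart between the doses. Nefh, at 0.429, 4.75 and 9.94 CPM against 6.10, 32.4 and 83.8, fell by 2.91 ± 0.69, and Tm4sf4, at 104, 377 and 979 CPM against 687, 1817 and 2608, fell by 2.01 ± 0.50. The member that rose, LOC100912195, had 1.72, 44.6 and 227 CPM against 1.90, 10.0 and 21.4, a difference of 2.54 ± 0.72. With the plate as a block 8 members were lower and 2 higher. No member passed without plate 1 or without plate 5, and 1 passed without plate 3 or plate 7. For the block and for the fits without a plate, the shares of all probes are not given here.

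With GW7647, at 1 against 0.01 µM and with 9 and 8 wells, 0 members passed in either direction, where 0.171% of all probes rose and 0.0149% fell. At an unadjusted p under 0.05 (edgeR) there were 22 members, fewer than the 27.0% of all probes. DESeq2 called 13 members, all higher. Its share of all probes is not given here, so nothing is read from that count. Of the members 88 were above 0, with a median of 0.56, and this median differed between settings. The median was 1.10 in co-culture and -0.024 in monoculture, and 0.10 against the mean of the 4 lowest-dose groups. Against vehicle it was -0.44, with 87 members below 0. Vehicle wells chose the members for being high, so nothing is read from that value. The smallest p belonged to Eci1, an isomerase of mitochondrial fatty acid oxidation, which had 378, 2041 and 6352 CPM at 1 µM and 229.7, 633 and 1369 at 0.01 µM, a difference of 2.08 ± 0.56 (edgeR, adjusted p 0.064). Tmsb10 was at 0.94 ± 0.36 (adjusted p 0.094), and Tpm1 was at -1.02 ± 0.47 (adjusted p 0.15). The number of detected probes in co-culture ran from 8613 to 10935 at 1 µM and from 11097 to 11561 at 0.01 µM. With this number as a covariate the members' median was -0.077, where that of all probes was 0.08, and 0 members passed. Plate 9 held wells of both cultures at 1 µM and none at 0.01 µM, so dose and plate are partly mixed in this comparison. Without plate 9 the members' median was 0.78, and 1 member passed, which was higher.

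**Figure D4:**
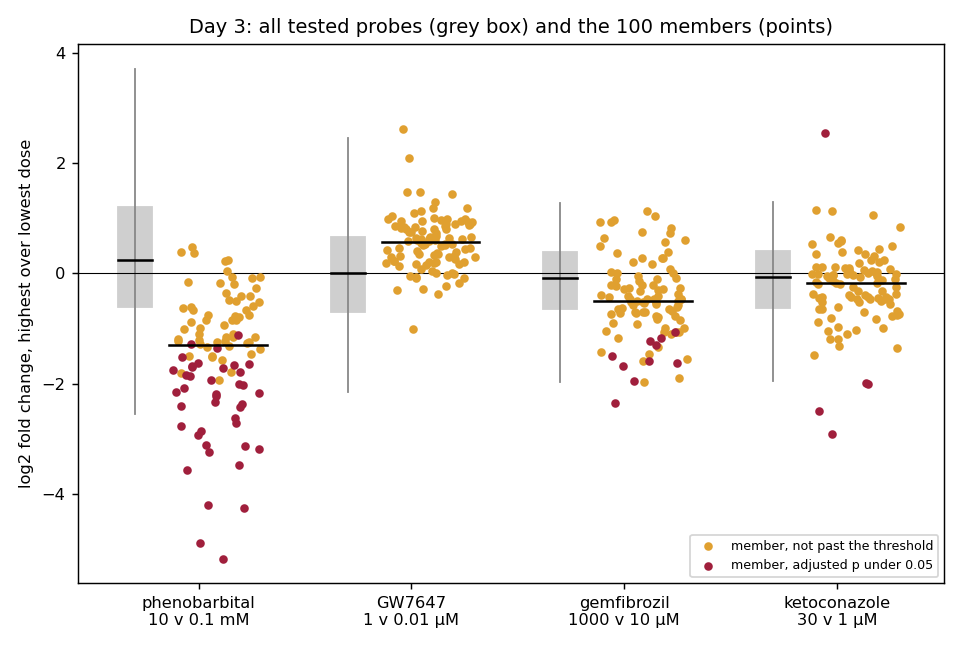
Log2 difference of the highest over the lowest dose on day 3 for the 100 members (points, red where the adjusted p is under 0.05), beside a grey box of the quartiles and a line from the 5th to the 95th percentile of all 13439 probes tested. With phenobarbital 94 members lie below 0 and 41 are red, with gemfibrozil 10 are red, with ketoconazole 5 and with GW7647 none.

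The comparisons of the 4 compounds share no wells, although they share plates. Of the 10 members that fell with gemfibrozil, 9 were among the 41 that fell with phenobarbital, and the other, Lamb3, was at -0.77 there. Of the 5 that passed with ketoconazole, the 4 that fell were among the 41. Nefh and Tm4sf4 fell with all 3 compounds. The share of all probes that fell with more than 1 compound is not given here. These overlaps therefore describe the members, and nothing particular to them is read from the counts. The middle against the lowest dose gave 0 members past the threshold for each of the 4 compounds, where 0% to 0.00744% of all probes passed in a direction, and at an unadjusted p under 0.05 there were 1, 3, 2 and 1 members for phenobarbital, GW7647, gemfibrozil and ketoconazole, where 5.52%, 1.73%, 1.53% and 2.56% of all probes had such a p. At 1 mM phenobarbital Ccl2 had a median of 109.9 CPM, Pdgfb of 17.1, Nefh of 41.3 and Npb of 9.30, between the medians of the lowest and highest doses. Msn also lay in between, while the median of Acta1 at 1 mM was below those of both other doses. A middle dose was not always in between for Ccl2 either. Its median at 100 µM gemfibrozil was above that at 10 µM.

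**Figure D5:**
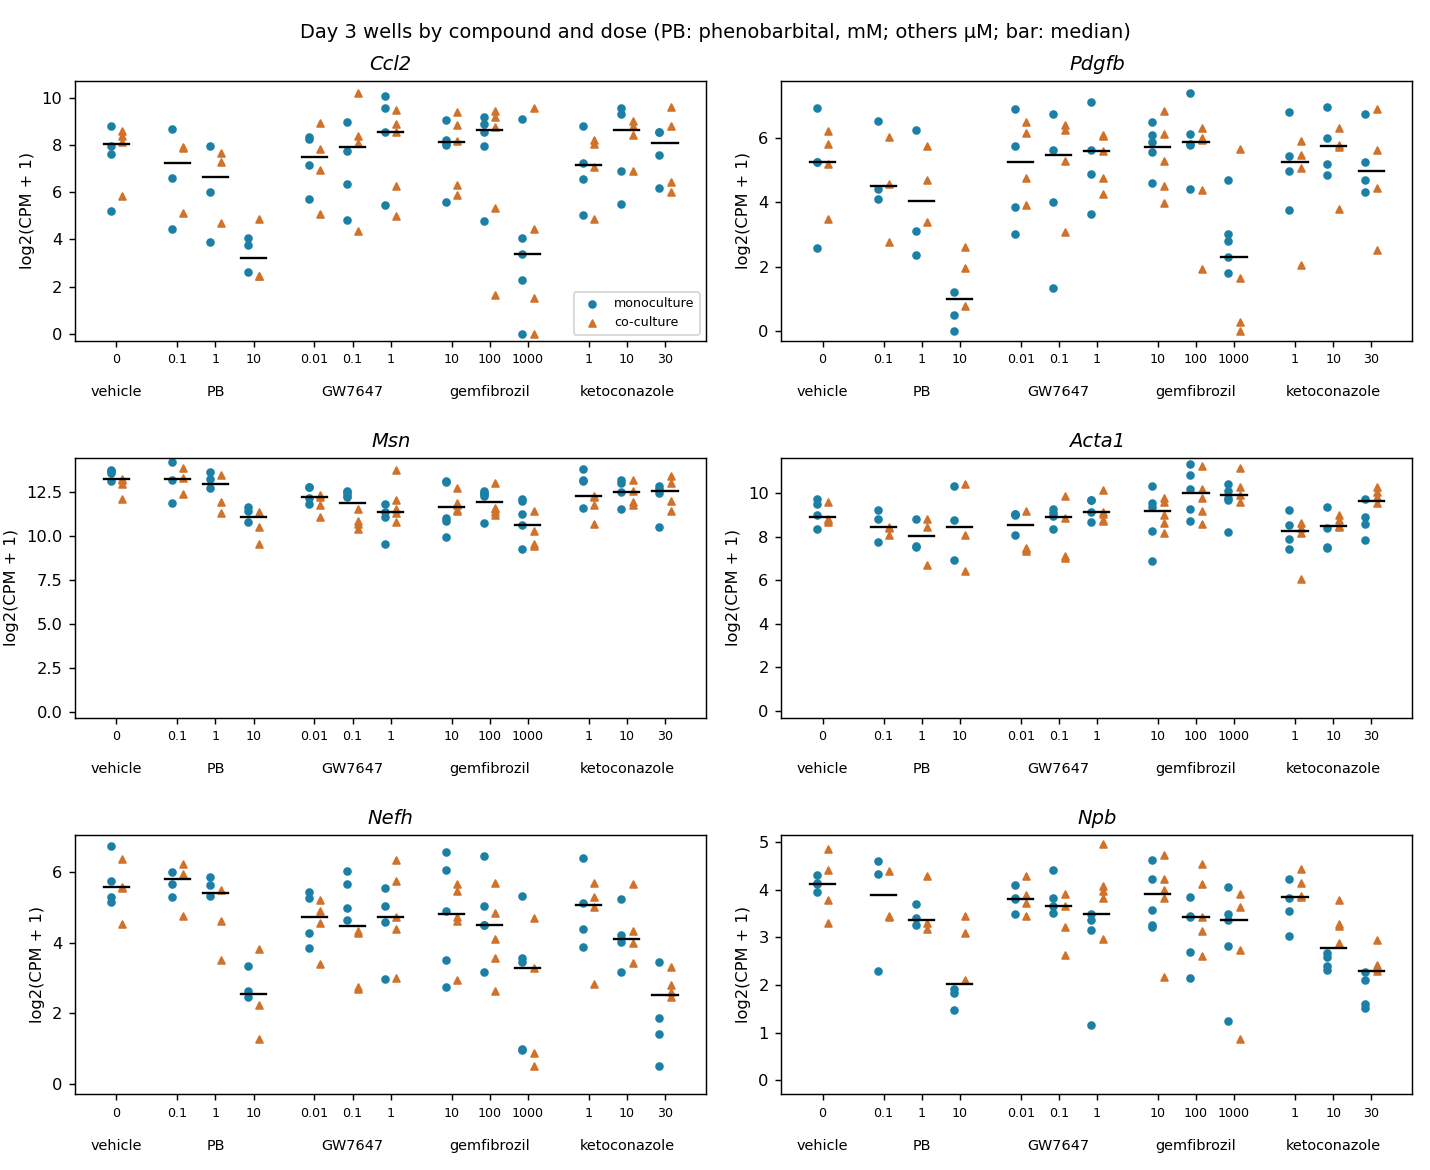
Log2(CPM + 1) on day 3 by compound and dose, with the vehicle wells at the left, for Ccl2, Pdgfb, Msn, Acta1, Nefh and Npb, a point for each well. The median of Ccl2 is 8.83 CPM at 10 mM phenobarbital. At 1000 µM gemfibrozil it is 9.40 CPM, where the highest well is at 753 CPM. In vehicle it is 263 CPM, but vehicle wells chose the members, so no fall is read from that. The median of Nefh is 4.75 CPM at 30 µM ketoconazole, while Acta1 has medians of 352 CPM or more at each highest dose.

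Against the vehicle wells of day 3, which chose the members, the highest dose gave 42 members lower with phenobarbital (7.55% of all probes), 34 with gemfibrozil (7.02%), 10 with ketoconazole (2.05%) and 0 with GW7647 (0.0149%), and 0 higher with any (5.11%, 13.1%, 1.14% and 0.275%). These counts are given as a description and nothing is read from them.

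Members were next compared between cultures on day 3. Over the treated wells, 48 of each culture, 0 members passed between co-culture and monoculture, where 0.0223% of all probes were higher and 0.00744% lower in co-culture. At an unadjusted p under 0.05 (edgeR) there were 7 members, near the 5.45% of all probes. DESeq2 called 1 member, with no share of all probes given here. The smallest p was that of Lamb3, with 4.52, 37.6 and 118 CPM in co-culture and 9.51, 45.0 and 182 in monoculture, a difference of -0.60 ± 0.16 (edgeR, adjusted p 0.17). Esam was at 0.03 ± 0.22, Ccl2 at 0.11 ± 0.37 and Acta1 at -0.09 ± 0.20. The difference of the highest-dose response between cultures passed for 0 members and 0% of all probes with each compound by edgeR, and for 0 members by DESeq2. At an unadjusted p under 0.05 there were 1, 9, 1 and 0 members for phenobarbital, GW7647, gemfibrozil and ketoconazole, where 4.06%, 2.05%, 1.82% and 2.25% of all probes had such a p. For GW7647, 95 members had a more positive difference in co-culture, with a median of 1.15, and with the covariate for detected probes that median was -0.017.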

How the data were processed

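The deposited table holds counts per probe and well, made by the assay's supplier per the labels' protocols and not normalized. The submitters' processing notes name Bowtie, with no version, and the genome build was not given in the sources used here. The members and the gene lists were chosen with earlier results of these data known. Each group is 1 culture, compound, dose and day, and the plate number served as replicate. Phenobarbital doses are in mM as the protocol gives them, while the dose label reads µM. The monoculture phenobarbital wells carry ketoconazole as their chemical label and were grouped as phenobarbital by their description. In the same way, 3 co-culture GW7647 wells of day 3 with conflicting dose labels were grouped under 0.1 µM by their description. No column was left out.

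Counts were fitted in R 4.3.3 with edgeR 4.0.16 (filterByExpr with a minimum count of 10, TMM, glmQLFit, glmQLFTest), two-sided, with Benjamini-Hochberg adjustment over all probes tested and a threshold of 0.05. One fit held the 24 lowest-dose groups of 3 days and another the 26 groups of day 3, of 3 to 5 wells each, and a contrast averaged its groups. CPM values use library totals. Fits were tested on simulated data. Named members are those of rank 1 to 15, up to 6 members of each list, up to 5 in each direction with the smallest p in a comparison, and others named for a shared family or role after their values were seen. Some members are not reported here. Residuals of wells of 1 plate correlated at a mean r of 0.130 in the fit over days and 0.176 on day 3. Between plates the values were -0.041 and -0.047, so plate was fitted as a block in an alternative. On plate 9, which held only day 3 wells with gemfibrozil or GW7647, the mean r on day 3 was 0.82 (36 pairs). In the fit over days it was 0.87 there, from 1 pair. DESeq2 1.42.0, other scalings, no filter, a covariate for detected probes, a pooled reference and leaving out plates were also tried.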

Additional observations from a re-analysis of the deposited data

Results flagged for a closer look

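In 3 of 96 groups of 8 vehicle wells tested, each a named member on 1 day, the most extreme well lay further from its neighbour than Dixon's 95% limit for 8 values allows. Chance alone gives about 1 in 20 such groups. Lamb3 on day 1 reached 76.2 CPM in the monoculture well of plate 3, where the next was at 39.1. Dao on day 3 reached 94.0 CPM in the monoculture well of plate 1, where the next was at 50.8. Tpm1 on day 3 reached 33608 CPM in the monoculture well of plate 3, where the next was at 18205.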

How the results depend on the processing

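Counts of members were recomputed with library totals, RLE scaling, DESeq2, no filter, plate as a replicate block, a covariate for detected probes and each plate left out. The count higher on day 3 than on day 1 (76) ran from 67 to 86 and from 52 to 76 without a plate. That against day 7 (75) ran from 61 to 81 and from 54 to 77 without a plate, except with the covariate, where 15 were higher and 38 lower. Phenobarbital (41) gave 33 to 58, and 5 to 52 without a plate. For GW7647 (0), library totals gave 2, RLE 1, DESeq2 13, the block 1 and the mean of the 4 lowest-dose groups as reference 1, and leaving out a plate 0 to 1. For gemfibrozil (10), DESeq2 gave 17, no filter 5, the block 22, the pooled reference 22 and leaving out a plate 0 to 23. For ketoconazole (5), no filter gave 3, the block 10, the pooled reference 11 and leaving out a plate 0 to 5, with the median turning to 0.30 and a count of 0 without plate 5. For co-culture against monoculture (0), DESeq2 and the block gave 1 each and leaving out a plate 0 to 1. The differences of response between cultures gave 0 throughout. The block lost none of the calls of named members. The rule itself kept 73 to 99 of the 100 under other settings. The causes were not tested. For most of these settings the shares of all probes are not given here. Nothing particular to the members is therefore read from the recomputed counts.

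Of 1067 recomputed values of named members 119 lost the threshold and 7 changed sign, all 7 against day 7 with the covariate: Cd59 -0.24, Nefh -0.78, Cdh17 -0.20, S100a11 -0.048, Egfr -0.0060, Dao -0.34 and a probe with no matched gene -0.43. Library totals moved the median of all probes from -0.10 to -0.38 against day 7, from 0.23 to 0.70 with phenobarbital and from 0.01 to -0.22 with GW7647, and the share of calls that were higher from 39.8% to 16.3%, from 47.4% to 76.3% and from 92.0% to 17.4%. Relative to those medians the members stood at 0.98 and 0.98 against day 7, at -1.54 and -1.59 with phenobarbital and at 0.55 and 0.58 with GW7647. With the covariate they stood at -0.45, -0.72 and -0.16, the last and the first with the sign turned, and for phenobarbital 30 were lower and 3 higher. With co-culture the share of higher calls went from 75% to 90.9%. At 10 CPM a member rests on few counts in the shallower wells, and 1 member had 51.0% of its day 3 vehicle counts in 1 library.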
